A study of Mus musculus with 2 samples.

Results

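Eosinophil-like Ccr3 cells of the mouse colon lamina propria were examined in single-cell transcriptomes of wild-type (WT) mice and of lncLy6c knockout (KO) mice, whose label names the deleted long non-coding RNA LncRNA17Rik. The cells were taken by a fixed rule: at least 2 unique molecular identifiers (UMIs, each marking 1 captured RNA molecule) of Ccr3, Siglecf, Alox15 and Serpinb2 in sum, fewer than 4000 UMIs in total, S100a8 and S100a9 below 1% of UMIs, and no UMI of Cd3e, Cd3d, Cd79a, C1qa, C1qb or C1qc. The rule found 463 cells among the 5111 that passed the filter of 200 to 6000 detected genes and at most 15% mitochondrial UMIs. Of these, 137 were among 2597 WT cells and 326 among 2514 KO cells. The 4 rule genes, and every gene that varies with them, chose the cells, so their levels within the cells are a description.

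Eosinophils are granulocytes that leave the bone marrow under the cytokine interleukin-5 and settle in the gut lamina propria, where they are resident under homeostasis. Their entry is directed by the chemokine receptor Ccr3 and its ligands, the eotaxins. Mature eosinophils store cationic granule proteins whose transcripts are made mainly in marrow precursors, and they carry the inhibitory sialic acid receptor Siglecf.

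Each genotype was represented by 1 library of pooled male mice 8 weeks of age. The labels describe colon lamina propria cells from a Percoll gradient as cd11b+, the myeloid surface protein encoded by Itgam. The KO strain was made by CRISPR-Cas9 in C57BL/6J mice, with guides upstream of exon 1 and downstream of exon 2. With 1 library per genotype, genotype and library cannot be told apart, no test between genotypes was possible, and every interval given here covers counting error only. Levels are UMIs per 1000000 UMIs of the cells named (CPM). The targeted RNA was not analysed here.

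In WT, 3185 barcodes with 22191774 UMIs were deposited, and in KO 3020 barcodes with 23384895 UMIs. A single barcode occurred in both, in no eosinophil-like cell. B and T cells were present in both libraries in spite of the cd11b+ label. Immunoglobulin transcripts (Igha, Igkc and Jchain) were far more abundant in the WT library, with 2328 CPM in WT T cells against 54.1 CPM in KO T cells.

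Ccr3 lies on chromosome 9 from 124021972 to 124031689 on the plus strand (GRCm38, as are all positions given here), and Siglecf on chromosome 7 from 43351341 to 43359531 on the plus strand. Alox15, a lipid-oxidising enzyme of eosinophils, lies on chromosome 11 from 70344152 to 70352031 on the minus strand. Serpinb2, an inhibitor of plasminogen activators, and F5, coagulation factor V, lie on chromosome 1, from 107511423 to 107535478 and from 164151838 to 164220277, both on the plus strand. Because the surface receptors Ccr3 and Siglecf name the population, their RefSeq promoter windows are shown, from 250 bases before to 50 bases after the annotated start (GRCm38.p6, plus strand, chr9:124021721-124022020 and chr7:43351091-43351390). GATA factors direct eosinophil development, and the capitals mark 1 of the motifs AGATAA and its variant AGATAG, or TGATAA and its variant TGATAG, which were searched on both strands.

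Ccr3: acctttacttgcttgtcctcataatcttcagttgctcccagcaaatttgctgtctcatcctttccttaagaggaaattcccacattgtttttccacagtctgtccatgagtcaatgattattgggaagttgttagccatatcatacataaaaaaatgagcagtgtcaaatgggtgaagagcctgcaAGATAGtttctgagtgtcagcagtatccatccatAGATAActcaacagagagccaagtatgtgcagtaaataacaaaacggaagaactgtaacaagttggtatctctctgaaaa
Siglecf: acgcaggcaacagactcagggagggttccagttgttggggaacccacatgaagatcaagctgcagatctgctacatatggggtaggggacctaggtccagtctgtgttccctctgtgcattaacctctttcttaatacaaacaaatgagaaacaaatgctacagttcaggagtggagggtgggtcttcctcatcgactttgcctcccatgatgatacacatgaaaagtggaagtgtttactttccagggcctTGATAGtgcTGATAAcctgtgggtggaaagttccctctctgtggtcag

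The Ccr3 window held AGATAG beginning 64 bases and AGATAA beginning 30 bases before the start, and the Siglecf window held TGATAG and TGATAA beginning at bases 3 and 12. One of these letter strings was found in 9778 of 32851 windows of this length over all genes (29.8%). Serpinb2 (in 1 of its 2 windows), Retnlg, Il4 (in both windows) and Gfi1b held 1 match each per window, and F5 held none. These matches describe the sequence and were not tested for binding.

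The rule capped the cells at fewer than 4000 UMIs. Their total UMIs ran from 507 to 3901 with a median of 938 in WT and from 507 to 3963 with a median of 1062 in KO, against medians of 1926 and 2291 in the 968 WT and 627 KO other filtered cells under the same limit. A median of 558 genes per cell was detected in WT and 625.5 in KO. No deposited barcode had fewer than 501 UMIs in WT or 500 in KO, and 26 WT and 31 KO eosinophil-like cells had fewer than 600 UMIs. The population therefore reached down to the lower edge of the deposited barcodes, and cells below that edge were not analysed here.

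Eosinophil-like cells made up 5.28% of filtered WT cells (95% Clopper-Pearson interval 4.45 to 6.21) and 13% of filtered KO cells (11.7 to 14.3). The WT file holds far fewer barcodes than the WT cells the study counted, and which cells these are is not known, so the WT share may depend on that subset. The log2 ratio of the shares, KO over WT, was 1.30 (1.01 to 1.60). Among filtered cells with fewer than 4000 UMIs the shares were 12.4% of 1105 WT cells and 34.2% of 953 KO cells. When only the rule UMIs were thinned, to 500 UMIs per cell, the expected shares of filtered cells were 3.53% and 9.68%. The UMI limit, the S100a8 and S100a9 limit and the exclusion genes were still applied at full depth. The KO library thus held the larger share also with the rule genes counted at equal depth, with no replicate of either genotype to set it against. A limit of 5% on mitochondrial UMIs lowered the log2 ratio to 0.64 (0.29 to 1.00), from shares of 6.04% and 9.43%. Of the eosinophil-like cells, 27 of 137 in WT (19.7%) and 148 of 326 in KO (45.4%) exceeded that limit, whereas among the other filtered cells 30.5% did in WT and 21.9% in KO. The part of this RNA quality measure in the difference of the shares was not tested.

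The edges of the rule held many cells in relation to the WT members. Exactly 2 rule UMIs were found in 31 WT and 45 KO members, and a further 44 WT and 61 KO cells missed the rule by having only 1. The depth limit was missed alone by 17 WT and 42 KO cells with 4000 or more UMIs, while 7 WT and 4 KO members had 3000 or more. An exclusion gene alone removed 37 WT and 16 KO cells, 32 and 12 of them through a C1q UMI, and S100a8 and S100a9 alone removed 3 and 9.

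**Figure D1:**
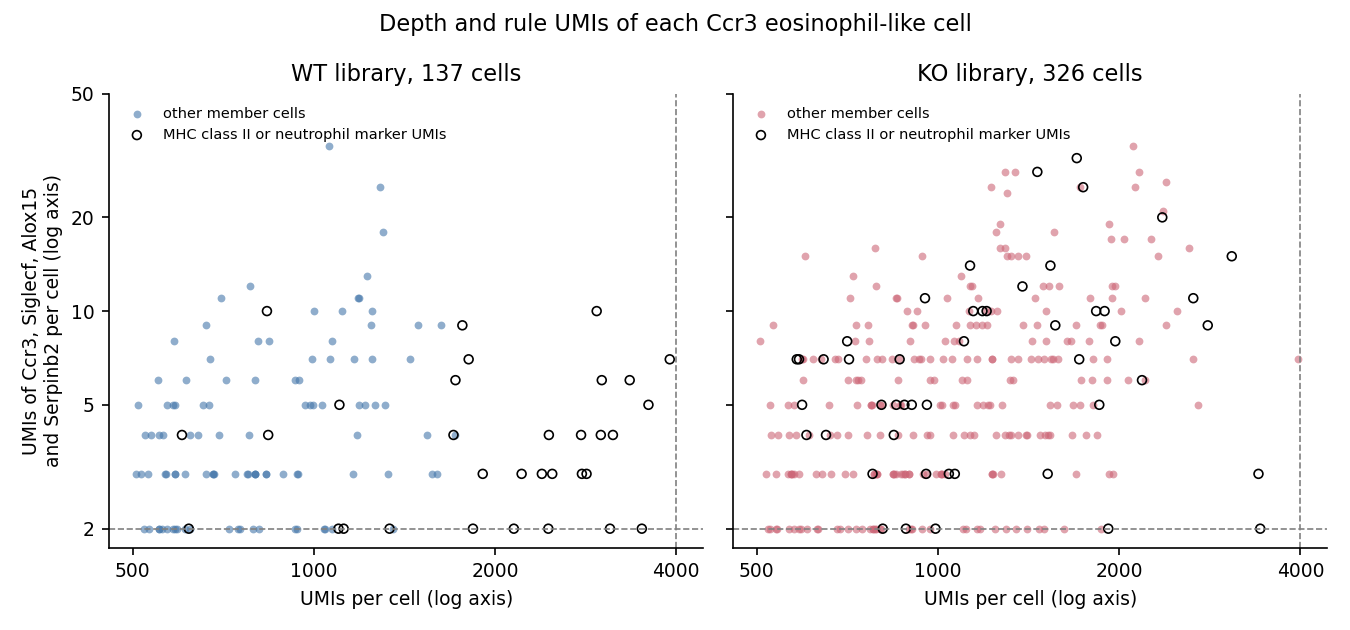
Each point is 1 eosinophil-like cell, plotted by its total UMIs (x axis, log scale) and its UMIs of Ccr3, Siglecf, Alox15 and Serpinb2 (y axis, log scale), in the WT library (left, 137 cells) and the KO library (right, 326 cells). Dashed lines mark the limits of 2 rule UMIs and 4000 total UMIs, and open circles mark cells with 5 or more MHC class II UMIs or with a neutrophil marker UMI, which among cells with 1500 or more UMIs are 24 of 29 in WT and 18 of 81 in KO.

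Some members held UMIs of genes that mark other cells, and whether these came from the members themselves was not tested. At least 5 UMIs of H2-Aa, H2-Ab1, H2-Eb1 and Cd74, which encode the MHC class II antigen-presenting machinery, were found in 23 WT and 18 KO members, which held 429 of the 542 such UMIs in WT and 254 of 685 in KO. A UMI of the neutrophil genes Csf3r, Cxcr2, S100a8 or S100a9 was found in 13 WT and 32 KO members. Either sign was present in 32 WT members (23.4%) and 48 KO members (14.7%). These cells were deep in WT, where they made up 24 of 29 members with 1500 or more UMIs but 8 of 108 below that. In KO they were 18 of 81 and 30 of 245. Because such cells made up the larger share in WT, results below are also given for a restricted set of 105 WT and 278 KO cells without either sign, a set defined after the data had been seen. In that set the shares were 4.04% and 11.1%, with a log2 ratio of 1.45 (1.12 to 1.79).

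Detection of 5 eosinophil markers was counted, 4 of which formed the rule and were thus raised by the choice of the cells. Serpinb2 was detected in 108 of 137 WT (78.8%) and 296 of 326 KO cells (90.8%), Ccr3 in 97 (70.8%) and 206 (63.2%), Alox15 in 48 (35.0%) and 136 (41.7%), and Siglecf in 9 (6.57%) and 57 (17.5%). F5, which the rule did not use, was detected in 56 WT (40.9%) and 163 KO cells (50%). In T cells, which should lack these genes and had median depths of 4905 and 5970 UMIs, Ccr3 was detected in 1 of 171 WT and 0 of 77 KO cells, and F5 in 2 and 2. After thinning to 500 UMIs the expected detection of Ccr3 was 49.9% in WT and 40.4% in KO eosinophil-like cells, and that of F5 25.4% and 30.6%. The Ccr3 values do not check the label, because the rule chose cells that hold this gene. Of these markers, F5 alone lay outside the rule, and its thinned detection was above that in T cells (0.0868% and 0.173%) and in neutrophils (0.429% and 4.03%). Siglecf, the sparsest, was detected in 6 of 44 WT and 17 of 233 KO neutrophils, and after thinning in 3.54% of WT eosinophil-like cells against 4.0% of WT neutrophils, and in 8.20% against 1.53% in KO. In WT, Siglecf thus did not set the cells apart from neutrophils. Ccr3 and Serpinb2 were found together in 71 WT and 181 KO cells, while 23 WT and 62 KO cells entered through Serpinb2 alone. Itgam was detected in 53.3% of WT and 55.5% of KO cells, at 764 and 737 CPM.

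Granule protein transcripts were nearly absent. Epx (eosinophil peroxidase) and Ear1 had no UMI in either library, which allows up to 18.5 CPM in WT and 7.71 CPM in KO (3 UMIs per library). Prg2 (major basic protein) had 2 UMIs in WT and 13 in KO, Prg3 0 and 1, Ear2 2 and 0, and Ear6 0 and 10. Il5ra, the interleukin-5 receptor subunit that defines the lineage in marrow, had 2 and 11 UMIs, and the lineage factors Gata1 and Gata2 had 1 and 4 and 3 and 20 UMIs. Cebpe, needed for terminal granulocyte differentiation, had 14 and 38 UMIs, at 86.2 and 97.6 CPM, against 0 and 11 CPM in neutrophils. Ptgdr2 and Hrh4, receptors for prostaglandin D2 and histamine found on eosinophils, had no UMI. Outside the rule, F5 and Cebpe were thus higher than in neutrophils, whereas granule proteins and Il5ra were near 0.

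Markers of other cell types were counted in the same cells. The 9 B and plasma cell markers were the highest outside the neutrophil list in WT, at 6097 CPM in 136 of 137 WT cells and 139 CPM in 50 KO cells, most of them UMIs of Igha, Igkc and Jchain. Of 12 basophil and mast cell markers, 4 were detected in WT and 1 in KO, with 5 and 2 UMIs in total. Of 8 dendritic cell markers, 3 and 6 were detected, with 6 and 18 UMIs. The 12 T, NK and innate lymphoid markers summed to 29 and 8 UMIs, of which 24 were Gzma in 5 WT cells, and Cd3e, Cd3d (both barred by the rule) and Cd3g were at 0. Among 6 tuft cell markers, Gfi1b, which granulocytes also express, held 21 of 21 WT and 22 of 23 KO UMIs, and Dclk1, Trpm5, Pou2f3 and Il25 were at 0. Macrophage markers summed to 591 and 257 CPM, against 12074 and 10754 CPM in macrophages picked for 3 or more C1q UMIs, a gap that was partly fixed in advance because the rule bars C1q. Monocyte markers summed to 708 and 283 CPM, and epithelial markers to 370 and 20.5 CPM. The 14 neutrophil markers reached 8752 and 7536 CPM, but Retnlg alone made up 7329 and 6617 CPM of this, and Ly6g, Ngp and Camp were at 0.

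**Figure D2:**
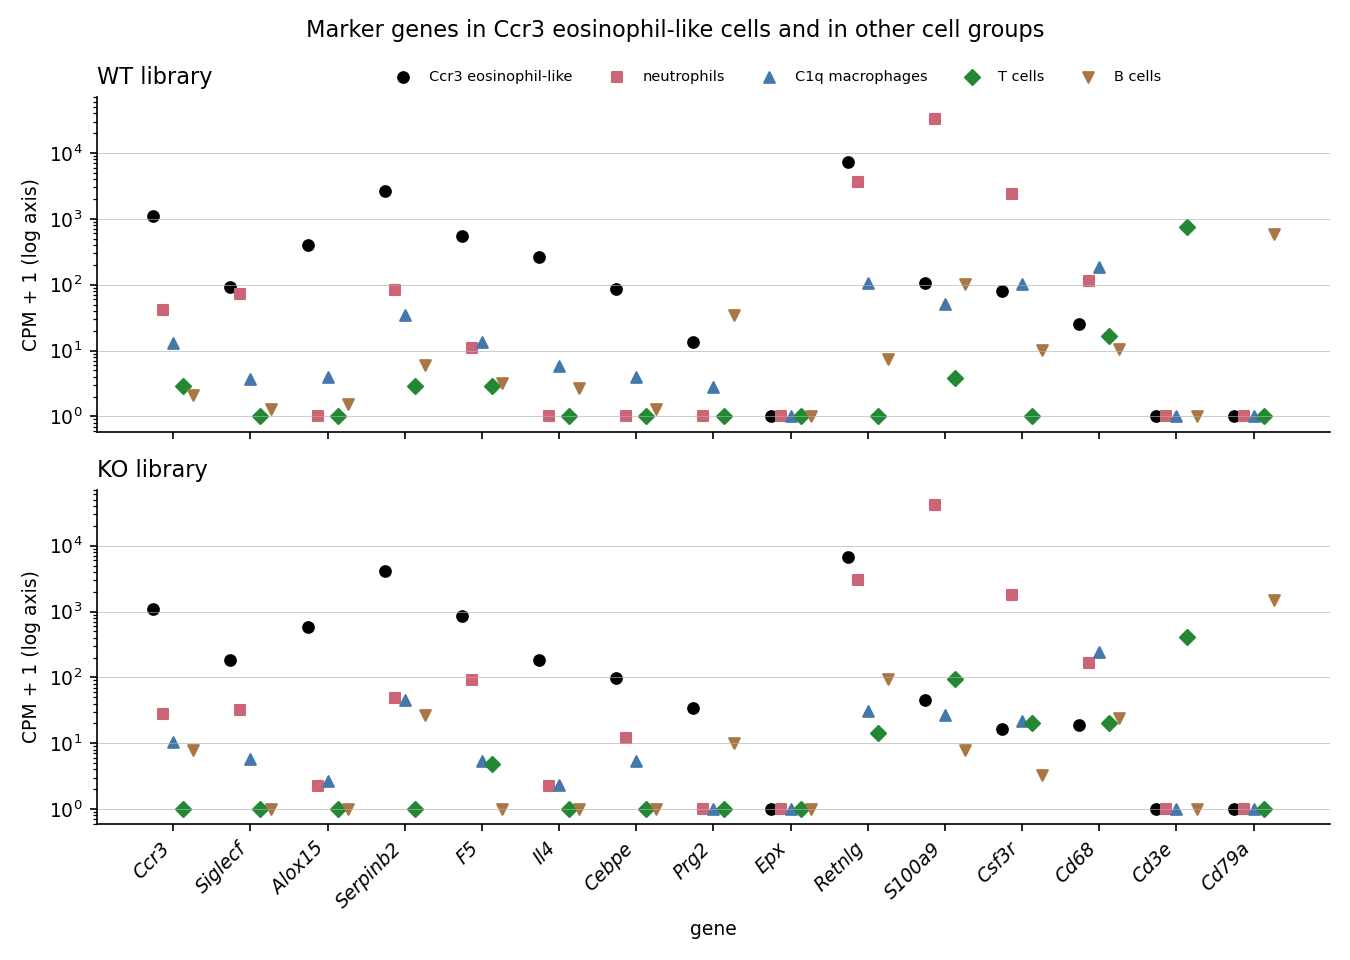
Levels of 15 marker genes (y axis, CPM + 1, log scale) in eosinophil-like cells and in neutrophils, C1q macrophages, T cells and B cells of the WT library (top) and the KO library (bottom), with 1 point per cell group and gene. Ccr3, Alox15, Serpinb2, F5 and Il4 lie highest in the eosinophil-like cells in both libraries, Epx lies at 0 in every group, and S100a9 and Csf3r lie highest in neutrophils.

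The genes that set the population apart from all other filtered cells are listed as a description, since the cells were selected on correlated genes. Ranked by the smaller of the WT and KO ratios, the leading genes were Serpinb2, Ccr3, Retnlg, Alox15, F5, Gadd45a, 9830107B12Rik, Rab44, Il4, Rflnb, Gapt, Tgm2, Gfod1, Syne1, Acpp, Reps2, Dusp6, Ccl6, Camk1 and Cd24a. F5 stood at 542 and 863 CPM against 7.22 and 11.2 CPM in the other cells. Gadd45a, a stress-induced regulator of growth arrest, stood at 2747 and 2250 CPM against 94.6 and 72.6 CPM. Tgm2 (tissue transglutaminase) stood at 2267 and 3493 CPM against 154 and 205 CPM, and Cd24a, a glycosylated surface protein of granulocytes, at 2334 and 3416 CPM against 198 and 242 CPM. Neutrophils shared these genes in part, with Gadd45a at 979 and 462 CPM, Tgm2 at 1272 and 1223 CPM, and Cd24a at 717 and 759 CPM. In contrast, F5 stood at 10.1 and 88.9 CPM and Il4 at 0 and 1.22 CPM in neutrophils. Il4, the type 2 cytokine, stood at 265 and 182 CPM against 3.29 and 1.73 CPM, and was detected in 22.6% of WT and 17.8% of KO cells. The related type 2 cytokines were nearly silent, with no Il5 UMI in either library and 0 and 3 Il13 UMIs.

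Between the genotypes, 3603 genes had at least 20 UMIs over both libraries. Of these, 202 were at least 2-fold higher in KO (5.61%) and 216 at least 2-fold lower (6.0%) with a prior of 10 CPM, and the median log2 ratio over all of them was 0.04. Without the cells that carried MHC class II or neutrophil marker UMIs, 121 of the 202 and 94 of the 216 were past 2-fold in the same direction, with a median over all genes again of 0.04. Genotype ratios of single genes below are given without the prior unless stated, from 162362 UMIs in WT and 389306 in KO. Medians over lists, counts of genes past 2-fold and the ranking of genotype ratios carry the prior.

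**Figure D3:**
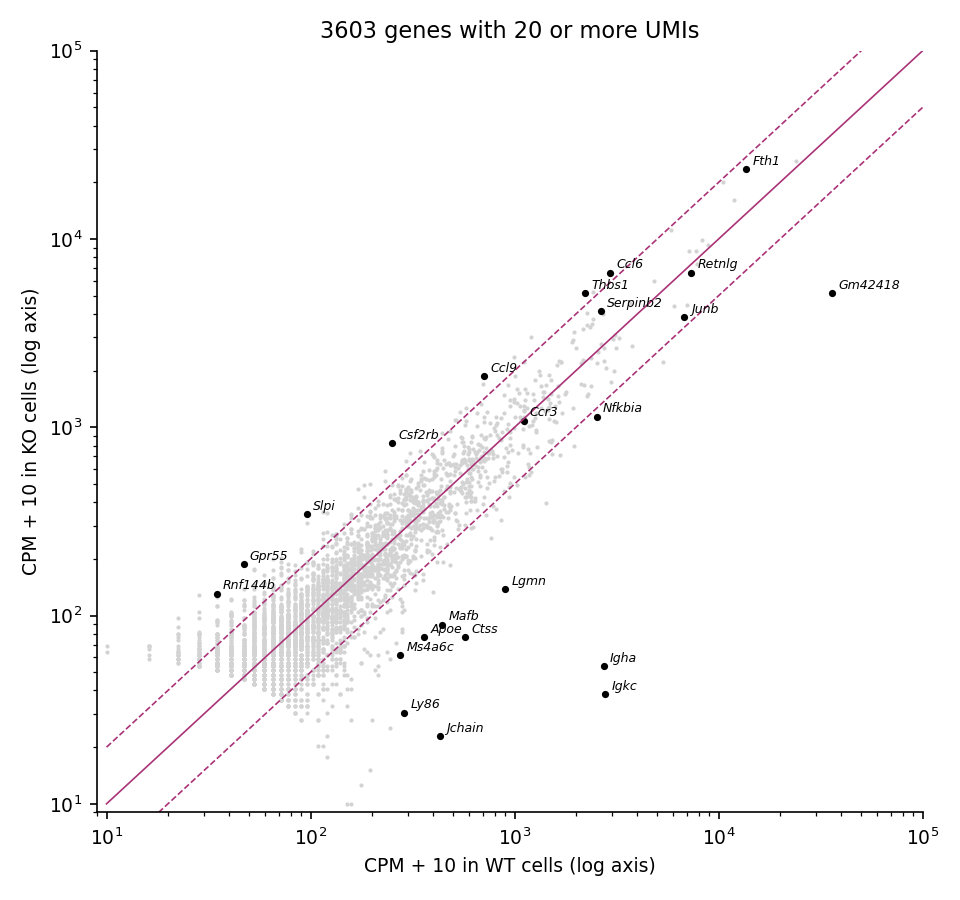
Each point is 1 of 3603 genes, plotted by its CPM + 10 in WT (x axis, log scale) and KO eosinophil-like cells (y axis, log scale). The solid line marks equal levels and the dashed lines a 2-fold difference. Csf2rb, Ccl9, Slpi, Gpr55 and Rnf144b lie above the upper line, and Igha, Igkc, Jchain and Gm42418 lie far below the lower line.

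Of 9 eosinophil receptor and lineage genes outside the rule with enough UMIs, 4 were at least 2-fold higher and none was 2-fold lower, with a median log2 ratio of 0.98 (0.66 in the restricted set). Csf2rb, the common beta chain of the receptors for interleukin-3, interleukin-5 and GM-CSF, had 39 UMIs in 31 WT cells and 317 UMIs in 163 KO cells, which gave 240 CPM in WT against 814 CPM in KO. Its log2 ratio was 1.76 (1.28 to 2.28) and 1.25 (0.71 to 1.84) in the restricted set. Detection was 22.6% in WT and 50% in KO, and 12.1% and 28.4% after thinning to 500 UMIs, against 0.561% and 1.02% in thinned T cells and 20.5% and 15.2% in thinned neutrophils. In WT, Csf2rb detection was thus higher in neutrophils than in the eosinophil-like cells. Csf2rb2, the adjacent copy that serves the interleukin-3 receptor, was at 148 and 331 CPM, with a log2 ratio of 1.16 (0.53 to 1.86) and 1.12 (0.31 to 2.04) in the restricted set. Both genes lie on chromosome 15, Csf2rb from 78325752 to 78353847 on the plus strand and Csf2rb2 from 78282507 to 78305721 on the minus strand, and their sequences are alike, so that reads may be divided between them. Both were higher in the KO library.

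Adgre1, which encodes the surface protein F4/80 carried by eosinophils and macrophages, was at 222 CPM in WT against 573 CPM in KO, with a log2 ratio of 1.37 (0.86 to 1.92). The ratio in the restricted set was 0.83 (0.28 to 1.43). Id2, an inhibitor of helix-loop-helix factors, was at 474 and 948 CPM, with a log2 ratio of 1.00 (0.64 to 1.37) and 0.98 in the restricted set. Ccr3 itself was at 1096 CPM in WT against 1076 CPM in KO, with a log2 ratio of −0.03 (−0.28 to 0.23) that was −0.44 (−0.72 to −0.15) in the restricted set. Serpinb2 was at 2636 and 4148 CPM, with a log2 ratio of 0.65 (0.50 to 0.81) that was 0.08 (−0.09 to 0.25) in the restricted set. For the rule genes the genotype ratio therefore depended on which cells were counted.

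Among 12 cytokine receptors, 4 were at least 2-fold higher and none 2-fold lower, with a median log2 ratio of 0.31 (0.77 in the restricted set). Besides Csf2rb and Csf2rb2 these were Il1rl1 and Ifngr1. Il1rl1, the interleukin-33 receptor, had 11 UMIs in 9 WT cells and 69 UMIs in 55 KO cells, a log2 ratio of 1.39 (0.46 to 2.45) and 1.53 (0.33 to 3.04) in the restricted set. Ifngr1, the interferon gamma receptor, had 9 and 64 UMIs, with a log2 ratio of 1.57 (0.55 to 2.76) and 1.45 (0.13 to 3.14) in the restricted set. The interleukin-10 receptor chain Il10rb differed in the other direction, at 419 and 221 CPM with a log2 ratio of −0.92 (−1.40 to −0.44) and −0.90 in the restricted set.

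Among 8 chemoattractant receptors, none was 2-fold higher and 2 were 2-fold lower with the prior. These were Ccr2, a receptor of monocytes, with 38 UMIs in 13 WT cells and 6 UMIs in 4 KO cells, and C5ar1, the receptor of complement C5a, with 15 UMIs in 11 WT cells and 16 UMIs in 13 KO cells. In the restricted set 1 WT and 3 KO UMIs of Ccr2 were left, and 6 and 12 of C5ar1. P2ry14, a receptor for UDP-sugars, was at 240 and 483 CPM with a log2 ratio of 1.01 (0.50 to 1.54) and 0.68 (0.09 to 1.31) in the restricted set. C3ar1, the receptor of complement C3a, was at 160 and 313 CPM with a log2 ratio of 0.97 (0.35 to 1.64) and 0.64 (−0.07 to 1.43). Both were near 0 in neutrophils, with at most 12.2 CPM. The chemokine receptor Cxcr4 was at 1263 and 958 CPM, with a log2 ratio of −0.40 (−0.65 to −0.15).

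Secreted chemokines were abundant and differed by gene. Of 12 with enough UMIs, 2 were 2-fold higher (Ccl6 and Ccl9) and 2 were 2-fold lower (Ccl5 and Cxcl9) in KO. Ccl5, a further ligand of Ccr3 that the study followed, had 14 UMIs in 7 WT cells and 10 UMIs in 10 KO cells, a log2 ratio of −1.75 (−3.08 to −0.47) and −0.96 (−2.70 to 0.96) in the restricted set. The Cxcl9 UMIs, 11 and 10, lay in 1 cell of each library. Ccl6, a myeloid chemokine detected in 89.1% of WT and 94.2% of KO cells, was at 2932 and 6630 CPM, a log2 ratio of 1.18 (1.04 to 1.32) that was 0.69 (0.53 to 0.85) in the restricted set. Its relative Ccl9 was at 702 and 1862 CPM, with a log2 ratio of 1.41 (1.12 to 1.71) and 1.31 (0.96 to 1.68). Ccl9 was scarce in neutrophils, at 0 and 76.7 CPM. Cxcl2, a neutrophil attractant, was at 6024 and 4385 CPM with a log2 ratio of −0.46 (−0.57 to −0.34), and Cxcl3 at 1029 and 717 CPM with a log2 ratio of −0.52 (−0.80 to −0.24) and −0.96 in the restricted set. Ccl3 and Ccl4, inflammatory chemokines, had log2 ratios of 0.25 (0.03 to 0.46) and −0.50 (−0.77 to −0.22), and of 0.67 (0.36 to 0.99) and −0.83 (−1.20 to −0.46) in the restricted set. The Ccl3 log2 ratio turned to −0.20 without cells with 5 or more MHC class II UMIs and to −0.07 at 5% mitochondrial UMIs, both with the prior. The eotaxins, which are ligands of Ccr3, were scarce, with no Ccl11 UMI and 0 and 3 Ccl24 UMIs.

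Thbs1, the matrix protein thrombospondin, was detected in 68.6% of WT and 82.8% of KO cells and stood at 2205 and 5140 CPM, with a log2 ratio of 1.22 (1.06 to 1.39) and 0.87 (0.68 to 1.06) in the restricted set. It was the single gene past 2-fold higher among 15 of adhesion and migration, where Icam1 was the single gene past 2-fold lower. Cd80, a ligand that costimulates T cells, was at 283 and 650 CPM, with a log2 ratio of 1.20 (0.74 to 1.68) and 0.69 (0.18 to 1.24). Tnfsf14, the cytokine LIGHT, had 3 WT and 46 KO UMIs, a log2 ratio of 2.68 (1.04 to 5.01). Among 17 paired and inhibitory receptors, 1 was 2-fold higher (Pira2, an activating receptor with close relatives that may divide its reads, at 111 and 267 CPM) and 1 was 2-fold lower (Clec4n, with 16 and 4 UMIs).

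**Figure D4:**
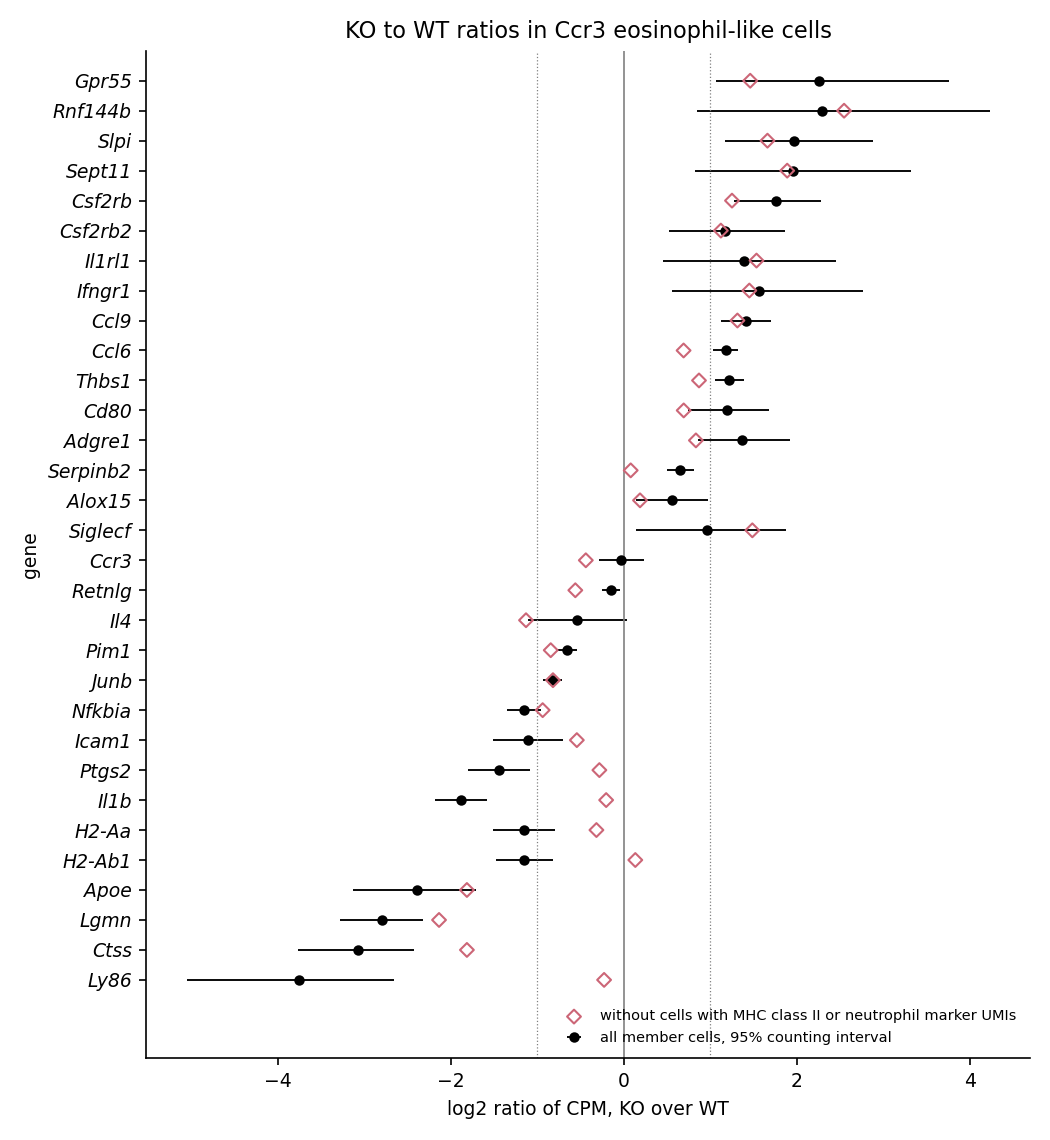
Log2 ratios of CPM, KO over WT (x axis), for 31 named genes, with all eosinophil-like cells as black points with 95% counting intervals and the restricted set as open diamonds. Dotted lines mark a 2-fold difference. Csf2rb, Csf2rb2, Il1rl1, Ifngr1 and Ccl9 stay past 2-fold in both sets, whereas Il1b, Ptgs2, H2-Aa, H2-Ab1 and Ly86 lie past 2-fold lower with all cells and near 0 without the marked cells.

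Il1b, Ptgs2 and 4 of 6 MHC class II genes were at least 2-fold lower in KO when all members were counted. Il1b, encoding interleukin-1 beta, was at 1417 CPM in WT against 385 CPM in KO, with a log2 ratio of −1.88 (−2.18 to −1.58). In WT, 9 cells held 188 of its 230 UMIs, and in KO 5 cells held 89 of 150. In the restricted set the log2 ratio was −0.20 (−0.95 to 0.60). Ptgs2 (cyclooxygenase-2) had a log2 ratio of −1.44 (−1.80 to −1.08) that became −0.28 (−1.08 to 0.58) in that set. The MHC class II genes H2-Aa and H2-Ab1 both had −1.15, and −0.32 and 0.13 in the restricted set, which was itself limited by these genes. The values of Il1b and Ptgs2 thus depended on the cells with MHC class II or neutrophil marker UMIs. Ly86, Ctss, Lgmn and Apoe, genes of macrophages, were among the 10 with the lowest ratios, and Ly86 dropped from 45 WT and 8 KO UMIs to 1 and 3 when those cells were left out. The others were more than 2-fold lower in the restricted set also, but from few UMIs. Lgmn had −2.13 (−2.90 to −1.38) from 35 WT and 28 KO UMIs. Ctss had −1.81 (−3.32 to −0.30) from 9 and 9 UMIs, and Apoe −1.81 (−3.23 to −0.39) from 10 and 10.

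Of 16 genes of the NF-kB pathway, 5 were 2-fold lower and none 2-fold higher, with a median log2 ratio of −0.40 (−0.20 in the restricted set). Nfkbia, the inhibitor that NF-kB induces, was at 2513 and 1130 CPM, with a log2 ratio of −1.15 (−1.35 to −0.95) and −0.94 (−1.20 to −0.67) in the restricted set. Tnfaip2 had a log2 ratio of −1.60 (−2.00 to −1.21) that was −0.35 (−1.11 to 0.46) there. Nfkb1, a subunit of the factor, was at 850 and 843 CPM, with a log2 ratio of −0.01 (−0.30 to 0.28). The level of Nfkbia was also lower in KO than in WT neutrophils, at 3434 against 5574 CPM.

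Immediate early genes, which dissociation can induce, had a median log2 ratio of −0.30 (−0.10 in the restricted set), with 3 of 16 being 2-fold lower and none 2-fold higher. Junb was at 6793 CPM in WT against 3838 CPM in KO, with a log2 ratio of −0.82 (−0.94 to −0.71) that was −0.82 in the restricted set also. Nr4a1, a nuclear receptor followed by the study in macrophages, had 71 UMIs in each library, at 437 and 182 CPM, with a log2 ratio of −1.26 (−1.76 to −0.77) and −1.02 (−1.69 to −0.32). Dusp1 and Jund had log2 ratios of −0.05 and −0.01, and Egr1 of 0.69 (0.22 to 1.19). The list thus did not differ as a block. Junb in neutrophils was at 7593 CPM in WT against 2885 CPM in KO. The kinase Pim1 was at 6997 and 4457 CPM in eosinophil-like cells, with a log2 ratio of −0.65 (−0.76 to −0.54). In neutrophils Pim1 stood at 7765 and 3448 CPM.

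Of 7 MHC class I genes, 2 were 2-fold lower and none 2-fold higher, with a median log2 ratio of −0.62 (−0.59 in the restricted set). B2m, the common light chain, was at 3067 and 1991 CPM, with a log2 ratio of −0.62 (−0.79 to −0.46), and H2-K1 at 1915 and 1256 CPM, with −0.61 (−0.82 to −0.40). H2-D1 was at 1066 and 1087 CPM, a log2 ratio of 0.03 (−0.23 to 0.29). B2m in neutrophils was at 4029 CPM in WT against 2533 CPM in KO. Type I interferon response genes had a median of −0.83 over 7 genes, with 3 of them 2-fold lower, and −0.00 in the restricted set.

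Genes of hypoxia and glycolysis had a median log2 ratio of 0.74 over 12 genes (0.63 in the restricted set). With the prior, 1 gene was 2-fold higher and none was 2-fold lower. Hif1a, the oxygen-regulated factor, was at 259 and 483 CPM, with a log2 ratio of 0.90 (0.41 to 1.42) and 1.08 (0.42 to 1.81) in the restricted set. The glycolytic enzymes Eno1, Pgk1, Gapdh and Pkm had log2 ratios of 1.24, 0.93, 0.83 and 0.79, whereas Hk2, which starts the pathway, had −1.03 (−1.63 to −0.42). Survival genes had a median of 0.04 over 11 genes, with 1 gene past 2-fold higher (5.61% over all genes). This was Bcl2a1a, with 7 and 53 UMIs, whose near-identical copies may divide its reads. Mcl1, a survival factor of granulocytes, was at 2106 and 2173 CPM, a log2 ratio of 0.04 (−0.14 to 0.23). Of 5 aryl hydrocarbon receptor pathway genes and 10 heat shock chaperones, none was past 2-fold. Ahr itself was at 388 and 699 CPM, with a log2 ratio of 0.85 (0.45 to 1.27) and 0.38 (−0.06 to 0.86) in the restricted set.

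The lineage and activation transcription factors had a median log2 ratio of 0.28 over 22 genes, with 2 of them 2-fold higher (Gata2 and Id1) and 2 2-fold lower (Irf1 and Klf4). Gata2 had 20 UMIs in 9 KO cells against 3 UMIs in WT, and its log2 ratio turned to −0.29 (with the prior) at 5% mitochondrial UMIs. Id1 had 25 against 3, and Irf1, an interferon-induced factor, had 18 against 27. Gfi1b, a repressor of the granulocyte and erythroid lineages, had 21 UMIs in 18 WT cells and 22 UMIs in 21 KO cells, a log2 ratio of −1.19 (−2.13 to −0.26) and −1.62 (−2.75 to −0.47) in the restricted set. Il4 had 43 UMIs in 31 WT cells and 71 in 58 KO cells, a log2 ratio of −0.54 (−1.10 to 0.04) that was −1.13 (−1.74 to −0.50) in the restricted set. Runx3, the factor the study followed in macrophages, had 19 and 63 UMIs, a log2 ratio of 0.47 (−0.29 to 1.29).

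The 10 highest ratios among genes with at least 50 UMIs belonged to Gpr55, Rnf144b, Slpi, Sept11, Csf2rb, Anxa11, Cbfa2t3, Cdk5r1, Arpc1a and Siglecg. Gpr55, a lysophospholipid receptor, had 6 UMIs in WT and 69 in KO, a log2 ratio of 2.26 (1.07 to 3.76). The Gpr55 ratio was 1.46 (0.25 to 2.97) in the restricted set. Slpi, a secreted protease inhibitor, had 14 and 131 UMIs, a log2 ratio of 1.96 (1.17 to 2.87) and 1.66 (0.73 to 2.76) in the restricted set. Slpi was also higher in KO neutrophils, at 6165 against 2605 CPM. Among the lowest ratios were those of Igkc, Igha, Jchain, Ly86, Ctss, Gm42418, Lgmn, Apoe and Ms4a6c. Ms4a6c had 0 WT and 7 KO UMIs in the restricted set, where its log2 ratio turned to 1.66 (with the prior). Igha, Igkc and Jchain together stood at 5925 CPM in WT against 84.8 CPM in KO eosinophil-like cells, at 2666 and 49.9 CPM in neutrophils, and at 4575 and 47.1 CPM in C1q macrophages. The immunoglobulin difference was thus present in each of these cell groups. Gm42418, a feature that overlaps ribosomal RNA sequence, was at 35834 and 5173 CPM, and 5 WT cells held 41.0% of its WT UMIs. Its levels in the restricted set were 20772 and 4519 CPM.

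Retnlg, a resistin-like secreted protein usually counted as a neutrophil gene, was among the most abundant transcripts of the eosinophil-like cells and divided them. It lies on chromosome 16 from 48872621 to 48874496 on the plus strand, and its relative Retnla lies upstream from 48842551 to 48844461. Retnlg was detected in 117 of 137 WT (85.4%) and 211 of 326 KO cells (64.7%), and in 76.6% and 58.5% after thinning to 500 UMIs, against 0 of 171 and 1 of 77 T cells. Its level was 7329 CPM in WT against 6617 CPM in KO, against 3595 and 2967 CPM in neutrophils. The log2 ratio was −0.15 (−0.25 to −0.05) with all cells and −0.56 (−0.67 to −0.45) in the restricted set. Csf3r, abundant in neutrophils at 2393 and 1766 CPM, was at 80.1 and 15.4 CPM in the eosinophil-like cells.

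Within the restricted set, cells were divided by the share of their UMIs taken by Retnlg, a division chosen after its values were seen. No Retnlg UMI was found in 15 of 105 WT cells (14.3%) and 101 of 278 KO cells (36.3%), whose median depths were 811 and 1021 UMIs. A share of 1% or more was found in 38 WT (36.2%) and 73 KO cells (26.3%), with median depths of 798.5 and 1206 UMIs. The KO cells without Retnlg were therefore no shallower than the WT cells without it. The share is continuous, and 11 WT and 22 KO cells lay between 0.8 and 1.2%.

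In the KO library, F5, a marker outside the rule, was at 888 CPM in cells without Retnlg and 810 CPM in those with 1% or more, a log2 ratio of −0.13 (−0.59 to 0.31). The rule genes, of which both classes had to hold UMIs, are given as a description. Serpinb2 was at 3920 and 4954 CPM in the same order, a log2 ratio of 0.34 (0.15 to 0.53). Ccr3 was at 1026 and 1140 CPM, Alox15 at 632 and 618 CPM, and Siglecf at 201 and 192 CPM. Other genes differed. Retnla had 212 UMIs in cells without Retnlg and 9 in cells with 1% or more, a log2 ratio of high over none of −4.34 (−5.49 to −3.39), and Ccl9 had 365 and 71 UMIs, a log2 ratio of −2.14 (−2.53 to −1.77). Il1rl1 had 32 and 7 UMIs, and the scaffold protein gene Ahnak 163 and 39. Higher in the Retnlg-high cells were Il1rn, the interleukin-1 receptor antagonist, with a log2 ratio of 1.95 (1.51 to 2.40), Notch1, a cell fate receptor, with 1.65 (1.07 to 2.27), Ahr with 1.13 (0.62 to 1.65), Cxcl3 with 1.47 (0.95 to 2.00) and the protease gene Adamdec1 with 2.58 (1.39 to 3.99).

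The WT library gave part of this contrast from fewer counts. Of the 59 genes with the largest ratios in KO, Retnlg included, 23 of 27 higher and 19 of 32 lower in KO Retnlg-high cells had the same sign in WT. Retnlg is 1 of the 23, and its sign was fixed because it defined the classes. The share of the same sign over all genes was not counted, so these numbers are a description. The 15 WT cells without Retnlg held 12262 UMIs, and some genes, such as Acpp, Itgax and Fcgr3, had 0 UMIs there. Ccl9 had 17 and 15 UMIs, a log2 ratio of −1.70 (−2.80 to −0.61), Ahnak −2.52 (−4.42 to −0.83), Il1rn 1.62 (0.62 to 2.80) and Cxcl3 2.55 (1.13 to 4.47). For these 4 genes, chosen after their values were seen, the direction was that of the KO library. Notch1 had 0.32 (−0.93 to 1.77) and Ahr 0.36 (−0.99 to 1.95) in WT, and S100a6, lower in KO with −1.60 (−2.11 to −1.12), had 0.60 (−1.26 to 3.05). Retnla was different, with 12 UMIs in WT cells without Retnlg and 35 in those with 1% or more, a log2 ratio of 0.03 (−0.95 to 1.11).

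Retnla transcripts were concentrated in few cells. Among all members, 11 WT cells held 70 UMIs and 29 KO cells held 360 UMIs, with at most 18 and 71 UMIs in a single cell. Of these, 7 WT and 18 KO cells had 5 or more UMIs and held 61 and 335 of them. Retnlg was also found in 5 of those 7 WT cells and in 4 of those 18 KO cells. Retnla was detected without Retnlg in 2 WT and 18 KO cells. Whether reads of these related genes were assigned to one another was not tested.

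**Figure D5:**
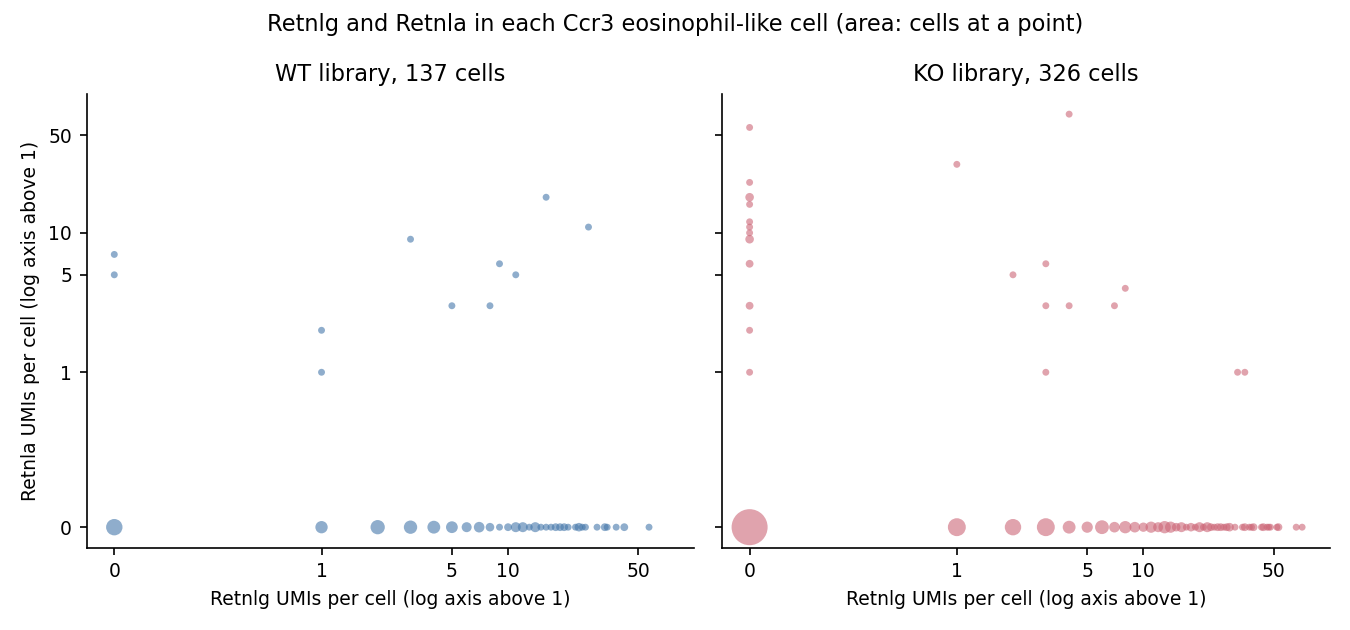
UMIs of Retnlg (x axis) and Retnla (y axis) in each eosinophil-like cell of the WT library (left, 137 cells) and the KO library (right, 326 cells), on axes that are logarithmic above 1, with point area standing for the number of cells at a position. Most cells have no Retnla UMI, and the 18 KO cells with Retnla alone line the y axis at 0 Retnlg UMIs, where WT has 2.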

How the data were processed

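The authors deposited unnormalised UMI counts for each barcode and gene, made with Cell Ranger 3.0.2 per the file headers. The submitters' processing notes give mm10 and Seurat 4. The WT file holds far fewer barcodes than the number of WT cells given by the study. The study's filter on genes and mitochondrial share was applied (200 to 6000 genes, at most 15%), no doublet caller was run, and cells with signs of mixing were left out as an alternative. Neutrophils had 5 or more S100a8 and S100a9 UMIs at 1% or more of UMIs, and T and B cells 2 or more UMIs of Cd3e and Cd3d or of Cd79a. UMIs were summed per library and given as CPM with exact Poisson 95% intervals, shares with Clopper-Pearson intervals, and KO to WT log2 ratios with exact conditional binomial intervals. The computation of the last was checked on simulated Poisson counts. These hold no clumping of UMIs in single cells, so the check does not cover such clumping. Ratios used for counting 2-fold differences, for medians over lists and for ranking genotype ratios had a prior of 10 CPM.

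The text names the label markers, genes of 39 lists with at least 10 UMIs, the 20 genes most raised over other cells, the 10 highest and 10 lowest ratios among genes with at least 50 UMIs seen in 10 cells, and abundant genes. Some genes that met these rules are not reported here. Members and lists were chosen with earlier results of these data known. Promoter sequences came from RefSeq (GRCm38.p6) and gene positions from GENCODE M21. Python 3.11.15, numpy 2.4.6, scipy 1.17.1, pandas 2.3.3 and matplotlib 3.10.9 were used.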

Additional observations from a re-analysis of the deposited data

Results flagged for a closer look

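Csf2rb was higher in KO than in WT eosinophil-like cells (log2 ratio 1.76, 1.28 to 2.28) but lower in KO neutrophils, at 525 CPM in WT against 367 CPM in KO, with a log2 ratio of −0.52 (−0.95 to −0.06). Apoe was lower in KO eosinophil-like cells (−2.39, −3.12 to −1.70) and higher in KO neutrophils, with 15 WT and 224 KO UMIs and a log2 ratio of 0.85 (0.10 to 1.71). Both were noted because the directions are opposite in these cell groups. With 1 library per genotype the difference between the groups was not tested.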

How the results depend on the processing

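With 1 library per genotype no library could be left out. No paired analysis was possible because each genotype has 1 library. The direction of the share difference held under all 14 alternatives, and its size moved beyond its counting interval only at a limit of 5% mitochondrial UMIs (log2 ratio 0.64). The numbers of genes past 2-fold depended on the prior and the filter. A prior of 50 CPM left 49 higher and 76 lower, a minimum of 50 UMIs 84 and 65 of 1819 genes, and a minimum of 1 UMI 668 and 961 of 10780. Leaving out cells with MHC class II or neutrophil marker UMIs, chosen after the data had been seen, left 234 higher and 112 lower of 2954 genes. Of 70 named genes past 2-fold, 33 stayed so in the same direction without those cells, 42 in cells under 1500 UMIs and 60 at 5% mitochondrial UMIs. When levels were taken as the mean over cells of the share of UMIs, 50 stayed so. Among these 70 genes, leaving out cells with 5 or more MHC class II UMIs changed the sign of the ratio for H2-Ab1 (0.15), Ms4a4c (1.07) and Ms4a6c (1.90), and leaving out cells with either mark did so for H2-Ab1 (0.13), Ms4a4c (1.16) and Ms4a6c (1.66), all with the prior. The sign also changed for Gata2 at 5% mitochondrial UMIs (−0.29) and for Psmb8 in cells under 1500 UMIs (0.35). Of the 189 other named genes, whose ratios were under 2-fold, 24 changed sign without MHC class II cells, 37 without either, 22 at 5% mitochondrial UMIs and 35 in cells under 1500 UMIs. The causes were not tested. With 162362 WT UMIs, a gene below 18.5 CPM in WT could not be told from 0.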
